A study of Rattus norvegicus with 49 samples.

Results

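A set of 10 genes of the endoplasmic reticulum (ER) and integrated stress responses were followed in the liver and kidney of rats given propylene glycol phenyl ether. The 10 genes were chosen by name, as the probe sets whose platform annotation gives exactly 1 of the symbols Atf4, Ddit3, Trib3, Asns, Psat1, Xbp1, Hspa5, Hsp90b1, Dnajb9 and Herpud1. These were 12 probe sets of 20826 that carry a single symbol, and 10 genes of 14217. Trib3 has 3 probe sets, and each other gene has 1. Male Harlan Sprague Dawley rats, an outbred stock, were 6 to 8 weeks old when assigned to groups and received the compound in corn oil by gavage on 5 days at a volume of 5 mL/kg. Tissue was taken the day after the last dose. The liver groups held 5 arrays at 0 mg/kg (corn oil alone) and 4 arrays at each of 1, 10, 100, 500 and 1000 mg/kg. The kidney groups were the same in size except for 3 arrays at 500 mg/kg. No tissue was taken from rats given 2000 mg/kg, which were killed moribund. The treatment text of the labels names another compound (MCHM), while the title and the compound label of every sample name propylene glycol phenyl ether, which is used here. Samples of a group are biological replicates according to the labels. Whether the liver and kidney arrays of 1 replicate number come from 1 rat is not given.

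When unfolded proteins collect in the ER, the sensors PERK, IRE1 and ATF6 lower protein synthesis and raise chaperones, which is called the unfolded protein response. PERK shares with other kinases the phosphorylation of the translation factor eIF2 alpha, and the ATF4 programme that follows, which raises genes of amino acid supply, is called the integrated stress response. The liver secretes much of the protein of blood plasma and has a large ER, and many chemicals that harm hepatocytes or kidney tubule cells raise these genes in rats.

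Promoters of ER chaperone genes are known to carry the sequence through which ATF6 and XBP1 act, the ER stress response element. Those of the genes in which it was found are shown because Hspa5 and Hsp90b1, which hold it, moved together from array to array in both organs. The windows are from RefSeq on GRCr8 and run from 250 bases before to 50 bases after each start. All 10 genes had a window. For Asns, Psat1, Dnajb9 and Herpud1 the start used lies inside the annotated gene, so the bases before its upstream end were not searched. The element was searched as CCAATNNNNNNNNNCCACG on both strands, and the C/EBP-ATF response element, at which ATF4 is known to bind, as TGATGNAAN on both strands. The first was found in 22 of 33469 windows (0.0657%), among them those of Hspa5, Hsp90b1 and Xbp1. The second was found in 1328 windows (3.97%), among them those of Trib3 and Herpud1. In the lines below, written 5′ to 3′ on the strand of the gene, capitals mark these matches, and no match overlaps another. Creld2, whose level followed that of Hspa5 in liver, is shown with them because its window held the first element. Of the 19 genes outside the set most like Asns or Hspa5, 15 had a window, and Creld2 alone held that element. Actg1 and Arfgap3, also like Hspa5 in liver, did not hold it. The windows are chr3:38452766-38453065 on the plus strand for Hspa5, chr7:23012244-23012543 on the minus strand for Hsp90b1, chr14:84604373-84604672 on the plus strand for Xbp1, chr7:121789134-121789433 on the plus strand for Creld2 and chr3:161275484-161275783 on the minus strand for Trib3.
Hspa5: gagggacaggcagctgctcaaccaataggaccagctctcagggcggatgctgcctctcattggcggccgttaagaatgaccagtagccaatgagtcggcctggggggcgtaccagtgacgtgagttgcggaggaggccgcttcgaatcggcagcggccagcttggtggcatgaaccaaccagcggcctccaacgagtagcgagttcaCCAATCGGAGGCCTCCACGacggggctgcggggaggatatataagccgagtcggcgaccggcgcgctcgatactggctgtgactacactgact
Hsp90b1: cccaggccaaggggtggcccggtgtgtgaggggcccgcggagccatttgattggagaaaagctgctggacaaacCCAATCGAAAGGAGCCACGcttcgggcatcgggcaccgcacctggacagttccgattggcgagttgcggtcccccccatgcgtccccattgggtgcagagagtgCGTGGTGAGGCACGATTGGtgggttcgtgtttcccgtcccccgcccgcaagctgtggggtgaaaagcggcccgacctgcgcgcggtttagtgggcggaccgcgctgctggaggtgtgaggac
Xbp1: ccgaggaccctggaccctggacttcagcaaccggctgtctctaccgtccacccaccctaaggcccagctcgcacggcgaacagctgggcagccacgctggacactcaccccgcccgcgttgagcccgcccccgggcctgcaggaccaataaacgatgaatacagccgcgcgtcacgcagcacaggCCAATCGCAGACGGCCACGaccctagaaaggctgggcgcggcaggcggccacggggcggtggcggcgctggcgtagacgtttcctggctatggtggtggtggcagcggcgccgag
Creld2: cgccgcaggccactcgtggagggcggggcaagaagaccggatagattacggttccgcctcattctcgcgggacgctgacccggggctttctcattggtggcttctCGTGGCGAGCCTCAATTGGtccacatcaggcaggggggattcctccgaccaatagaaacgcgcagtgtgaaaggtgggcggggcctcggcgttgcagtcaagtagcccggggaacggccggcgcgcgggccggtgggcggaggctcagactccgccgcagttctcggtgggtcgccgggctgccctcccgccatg
Trib3: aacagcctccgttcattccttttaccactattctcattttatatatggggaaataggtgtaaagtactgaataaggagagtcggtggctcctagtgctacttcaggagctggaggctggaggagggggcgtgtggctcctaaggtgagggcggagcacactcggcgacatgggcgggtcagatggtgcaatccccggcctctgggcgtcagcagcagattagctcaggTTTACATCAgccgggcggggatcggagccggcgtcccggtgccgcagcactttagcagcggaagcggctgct
The match lies 43 to 25 bases before the start in Hspa5 and 65 to 47 bases before it in Xbp1. Hsp90b1 holds the element 2 times, 176 to 158 bases before the start and, on the other strand, 72 to 54 bases before it. In Creld2 it is on the other strand, 145 to 127 bases before the start. The Trib3 match to the C/EBP-ATF element is on the other strand, 22 to 14 bases before the start. A match describes the letters of the window and is no measurement of binding.

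Values are log2 levels per probe set, summarised by RMA, and a log2 change of 1 is a 2-fold change. The median gene level of an array was 6.47 to 6.62 in liver and 6.62 to 6.77 in kidney, and correlations between arrays of an organ were 0.987 at the lowest. Precision is limited by the number of arrays. As a gauge of RNA quality, the log2 ratio of the 3′ to the 5′ control probe set of beta-actin was read. It was 2.34 to 3.07 in kidney at 0 mg/kg and 2.37 to 2.54 at 1000 mg/kg. In liver it was 1.11 to 1.27 at 0 mg/kg and 1.07 to 1.20 at 1000 mg/kg. The beta-actin ratio reached 3.16 at 1 mg/kg and 3.10 at 10 mg/kg in kidney, and 1.44 at 1 mg/kg in liver. The GAPDH ratio in kidney was 0.46 to 0.78 at 0 mg/kg and 0.53 to 0.59 at 1000 mg/kg. In liver the GAPDH ratio was 0.0050 to 0.13 at 0 mg/kg and 0.071 to 0.093 at 1000 mg/kg. The part of RNA quality in the changes and correlations below was not tested. Each of 10 hepatocyte and 10 kidney tubule markers had a higher median in the organ of its label, but 2 were not low in the other organ. The tubule transporter Slc22a8 had a median of 10.05 in liver and 11.29 in kidney, and the hepatocyte gene Cyp2c11 had 13.52 in liver and 6.97 in kidney. In these whole-tissue samples, fewer cells of a type and less RNA per cell cannot be told apart. All p-values for changes are from limma, and adjusted p-values use the Benjamini-Hochberg method over all 14217 genes. A gene was called at an adjusted p under 0.05.

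No member was called in liver at any dose. The count was 0 of 10 at 1, 10, 100, 500 and 1000 mg/kg, where 0%, 0.00703%, 0%, 0.0492% and 1.05% of all genes were called. It was also 0 for the trend with dose rank, which called 0.661% of all genes, and for 1000 against 500 mg/kg, which called 0.00703%. Among the 50 comparisons of a member at a dose with 0 mg/kg, 4 had an unadjusted limma p under 0.05, and all 4 were in Herpud1. The share of all genes with such a p was 9.45%, 9.22%, 9.18%, 10.7% and 12.4% from the lowest dose to the highest. At 1000 mg/kg 7 of 10 members had a log2 change above 0, against 54.3% of all genes, and their median change was 0.051, against 0.015 over all genes.

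The genes downstream of eIF2 alpha had their highest liver group means at 1000 mg/kg. For Ddit3 this mean was 7.51, against 7.46 at 0 mg/kg. The share of all genes with their highest liver mean at that dose was not computed. For the trend with dose rank, the smallest limma adjusted p of any member in liver was 0.698. Trib3, Psat1 and Asns had the widest spread of the set. Trib3, a pseudokinase induced by ATF4, read 9.08, 10.21, 8.74 and 9.20 in livers at 1000 mg/kg, against 7.21, 9.30, 8.93, 8.48 and 9.18 at 0 mg/kg. Replicate 2 at 1000 mg/kg and control replicate 1 lay farthest from the rest, and the groups overlapped. Trib3 thus had a log2 change of 0.69 with a standard error of 0.51 (limma adjusted p = 0.631), a 1.61-fold difference with a 95% interval from 0.778-fold to 3.34-fold. It was 0.33 without control replicate 1 and 0.39 without replicate 2 at 1000 mg/kg. The other probe sets of Trib3 gave log2 changes of 0.67 and 0.69. Within dose groups Trib3 had an SD of 0.825 in liver, higher than that of 99.8% of genes, and its lowest and highest liver arrays, both from rats given compound, were 6.86 and 10.21.

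Asns, asparagine synthetase, read 8.44, 8.87, 8.91 and 8.82 in livers at 1000 mg/kg. At 0 mg/kg it read 8.54, 8.34, 8.09, 7.82 and 8.72. Of the arrays at 1000 mg/kg, 3 lay above every control array, and replicate 1 lay among them. Its log2 change was 0.46 with a standard error of 0.25 (limma adjusted p = 0.471), and the 95% interval for the fold ran from 0.959 to 1.96. Psat1, phosphoserine aminotransferase of the serine synthesis route, read 9.02, 8.64, 9.18 and 9.01 at 1000 mg/kg, against 8.90, 8.41, 7.91, 7.74 and 9.19 at 0 mg/kg. Every array at 1000 mg/kg lay below the highest control. Its log2 change was 0.53 with a standard error of 0.30 (limma adjusted p = 0.484), with a 95% interval for the fold from 0.942 to 2.22.

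Both genes were also set against 500 mg/kg, where their group means were below those of the controls. Asns averaged 8.76 ± 0.22 at 1000 mg/kg and 8.10 ± 0.32 at 500 mg/kg (SD, n = 4 each), a log2 change of 0.66 with a 95% interval from 0.11 to 1.20 and a limma adjusted p of 0.646. Psat1 averaged 8.96 ± 0.23 at 1000 mg/kg and 8.27 ± 0.43 at 500 mg/kg (SD, n = 4 each), a log2 change of 0.69 with an interval from 0.041 to 1.34 and an adjusted p of 0.743. These were the only members under 0.05 unadjusted in that comparison, where 6.55% of all genes were.

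Atf4 encodes the transcription factor at the centre of the integrated stress response, whose amount is set mainly by translation, so its mRNA is a partial readout. It read 10.58, 10.85, 10.81 and 10.88 in livers at 1000 mg/kg, against 10.12, 10.45, 10.54, 10.78 and 10.77 at 0 mg/kg. The top 3 arrays at 1000 mg/kg exceeded every control, and the log2 change was 0.25 with a standard error of 0.18 (limma adjusted p = 0.613), or 0.15 without control replicate 1. Ddit3, which encodes the pro-apoptotic factor CHOP, read 7.51, 7.71, 7.24 and 7.58 at 1000 mg/kg, against 7.21, 7.63, 7.32, 7.31 and 7.84 at 0 mg/kg. Its groups overlapped, with a log2 change of 0.049 and a 95% interval for the fold from 0.840 to 1.27.

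**Figure D1:**
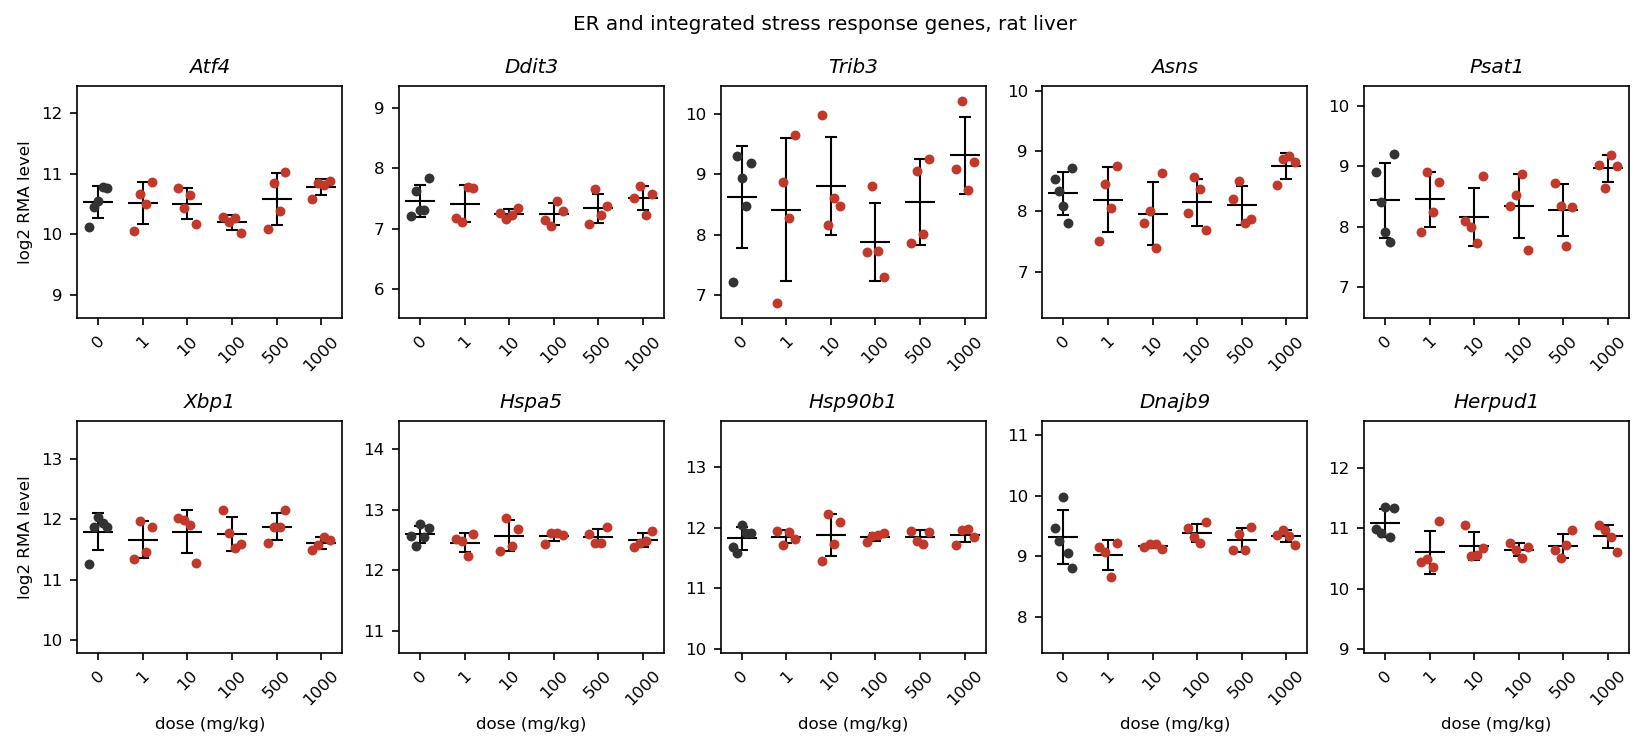
Log2 RMA levels (y axis) of the 10 genes in liver at each dose in mg/kg (x axis), with 1 point per array (black at 0 mg/kg, red with compound) and bars for the group mean ± SD (n = 5 at 0 mg/kg, n = 4 elsewhere). All panels span the same number of log2 units. Trib3 runs from 6.86 to 10.21, and Herpud1 sits below its controls in most arrays with compound.

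The ER chaperones Hspa5 and Hsp90b1 had the smallest spread within dose groups in liver, with SDs of 0.156 and 0.184. Hspa5 encodes BiP, the main ER chaperone and the most used readout of the unfolded protein response. It read 12.38, 12.45, 12.49 and 12.66 at 1000 mg/kg, against 12.56, 12.40, 12.76, 12.55 and 12.70 at 0 mg/kg. The groups overlapped. Its log2 change was -0.10 with a standard error of 0.10 (limma adjusted p = 0.757), and the 95% interval for the fold ran from 0.803 to 1.08. Hsp90b1 encodes GRP94, an ER chaperone of the HSP90 family. It averaged 11.88 ± 0.12 at 1000 mg/kg (SD, n = 4) and 11.83 ± 0.19 at 0 mg/kg (SD, n = 5), with an interval for the fold from 0.873 to 1.23. Dnajb9, an ER co-chaperone of BiP, averaged 9.33 ± 0.10 at 1000 mg/kg (SD, n = 4) and 9.31 ± 0.45 at 0 mg/kg (SD, n = 5). Xbp1 encodes the transcription factor that IRE1 activates by splicing its mRNA, and the level of a probe set is no measure of splicing. Xbp1 averaged 11.60 ± 0.10 at 1000 mg/kg (SD, n = 4) and 11.79 ± 0.31 at 0 mg/kg (SD, n = 5), with an interval for the fold from 0.684 to 1.13. Its log2 change was -0.19, and -0.32 without control replicate 1.

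Herpud1, an ER membrane protein of the degradation of misfolded proteins, had the smallest unadjusted p-values of the set in liver. At 0 mg/kg it read 10.98, 10.93, 11.36, 10.86 and 11.33. The 1 mg/kg livers read 10.44, 10.50, 10.36 and 11.12. Those at 10 mg/kg read 11.05, 10.55, 10.57 and 10.68, so in both groups 1 array lay among the controls and 3 lay below them. Those at 100 mg/kg read 10.76, 10.64, 10.52 and 10.70, all below the controls. At 500 mg/kg it read 10.64, 10.51, 10.72 and 10.98, and at 1000 mg/kg 11.05, 10.97, 10.85 and 10.61. Of the 20 arrays with compound, 15 lay below the lowest of the 5 control arrays and 0 above the highest. For 4.23% of all genes at least as many arrays with compound lay beyond the controls on 1 side. At 100 mg/kg all 4 arrays lay below every control, as in 0.879% of all genes.

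Herpud1 had a log2 change in liver of -0.49 at the 1 mg/kg dose, with a 95% interval from -0.79 to -0.18. It was -0.38 (-0.69 to -0.076) at 10 mg/kg and -0.44 (-0.75 to -0.14) at 100 mg/kg. It was -0.38 (-0.68 to -0.075) at 500 mg/kg, while at the top dose it was -0.22 (-0.53 to 0.085). The limma adjusted p-values were 0.349, 0.441, 0.357, 0.339 and 0.586 in the same order. All 5 comparisons use the same 5 control arrays, so they are not separate observations. The change did not grow with dose, and the trend with dose rank had an adjusted limma p of 0.733.

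No member was called in kidney either. The count was 0 of 10 at 1, 10, 100, 500 and 1000 mg/kg, where 0%, 0%, 0%, 0% and 1.55% of all genes were called. It was 0 for the trend with dose rank, which called 1.39% of all genes, and for 1000 against 500 mg/kg, which called 0%. Among the 50 comparisons of a member at a dose with 0 mg/kg, 2 had an unadjusted limma p under 0.05. The share of all genes with such a p was 2.98%, 7.35%, 6.83%, 5.08% and 13.3% from the lowest dose to the highest. At 1000 mg/kg 2 of 10 members had a log2 change above 0, against 44.5% of all genes, and the median change was -0.11, against -0.017 over all genes. The members below 0 include Hsp90b1, at -0.0018, and Trib3, whose probe sets disagreed in direction.

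Herpud1 at 1000 mg/kg was 1 of the 2 comparisons in kidney with an unadjusted limma p under 0.05. It read 9.96, 10.26, 10.31 and 9.76 in kidneys at 1000 mg/kg, against 9.97, 9.45, 9.97, 9.75 and 9.97 at 0 mg/kg. Replicates 2 and 3 at 1000 mg/kg lay above every control, and the other arrays lay among the controls. Herpud1 had a log2 change of 0.25 with a standard error of 0.11 (limma adjusted p = 0.317), a 1.19-fold difference with a 95% interval from 1.02-fold to 1.39-fold, and the change was 0.16 without control replicate 2, the lowest array. The trend with dose rank was 0.049 log2 units per dose step with a 95% interval from 0.010 to 0.087 (limma adjusted p = 0.240).

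The other was Dnajb9 at 10 mg/kg. It read 8.33, 8.27, 8.41 and 8.26 there, against 8.54, 8.58, 8.88, 8.51 and 8.42 at 0 mg/kg. All 4 arrays lay below every control, as in 1.67% of all genes, by a narrow margin at the nearest pair. The log2 change was -0.27 (limma adjusted p = 0.640). It was -0.10 at 1000 mg/kg, where the groups overlapped.

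The kidney levels of Hspa5 were 11.10, 11.43, 11.44 and 11.34 at 1000 mg/kg, against 11.41, 11.04, 11.90, 11.52 and 11.95 at 0 mg/kg. The controls spread more widely than the arrays at 1000 mg/kg and enclosed all 4 of them. Its log2 change was -0.24 with a standard error of 0.18, it ran from -0.37 to -0.14 without single control arrays, and the 95% interval for the fold ran from 0.656 to 1.09. Hsp90b1 averaged 11.14 ± 0.13 at 1000 mg/kg (SD, n = 4) and 11.14 ± 0.25 at 0 mg/kg (SD, n = 5), with an interval from 0.849 to 1.17. Xbp1 averaged 10.17 ± 0.15 at 1000 mg/kg (SD, n = 4) and 10.26 ± 0.22 at 0 mg/kg (SD, n = 5).

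The integrated stress response genes lay close to their control means in kidney. Atf4 averaged 9.64 ± 0.09 at 1000 mg/kg (SD, n = 4) and 9.78 ± 0.09 at 0 mg/kg (SD, n = 5), with a 95% interval for the fold from 0.806 to 1.02. Ddit3 averaged 7.69 ± 0.14 at 1000 mg/kg and 7.85 ± 0.11 at 0 mg/kg (SD, same n), with an interval from 0.785 to 1.02. Asns averaged 5.91 ± 0.40 at 1000 mg/kg and 5.88 ± 0.33 at 0 mg/kg, and Psat1 11.64 ± 0.09 at 1000 mg/kg and 11.76 ± 0.25 at 0 mg/kg. The interval for the fold of Asns ran from 0.765 to 1.36 and that of Psat1 from 0.782 to 1.08.

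The probe sets of Trib3 disagreed in kidney, where all of them read low and none is shown to lie above background. The probe set used for the gene read 4.80, 4.88, 5.08 and 5.27 at 1000 mg/kg, against 5.38, 4.66, 5.69, 5.19 and 5.37 at 0 mg/kg, a log2 change of -0.25. Another read 5.32, 5.90, 5.51 and 5.51 at 1000 mg/kg, against 5.37, 5.37, 5.18, 5.30 and 5.11 at 0 mg/kg, a log2 change of 0.30 (limma adjusted p = 0.348 over all probe sets). The remaining probe set gave 0.084. No direction is therefore given for Trib3 in kidney.

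**Figure D2:**
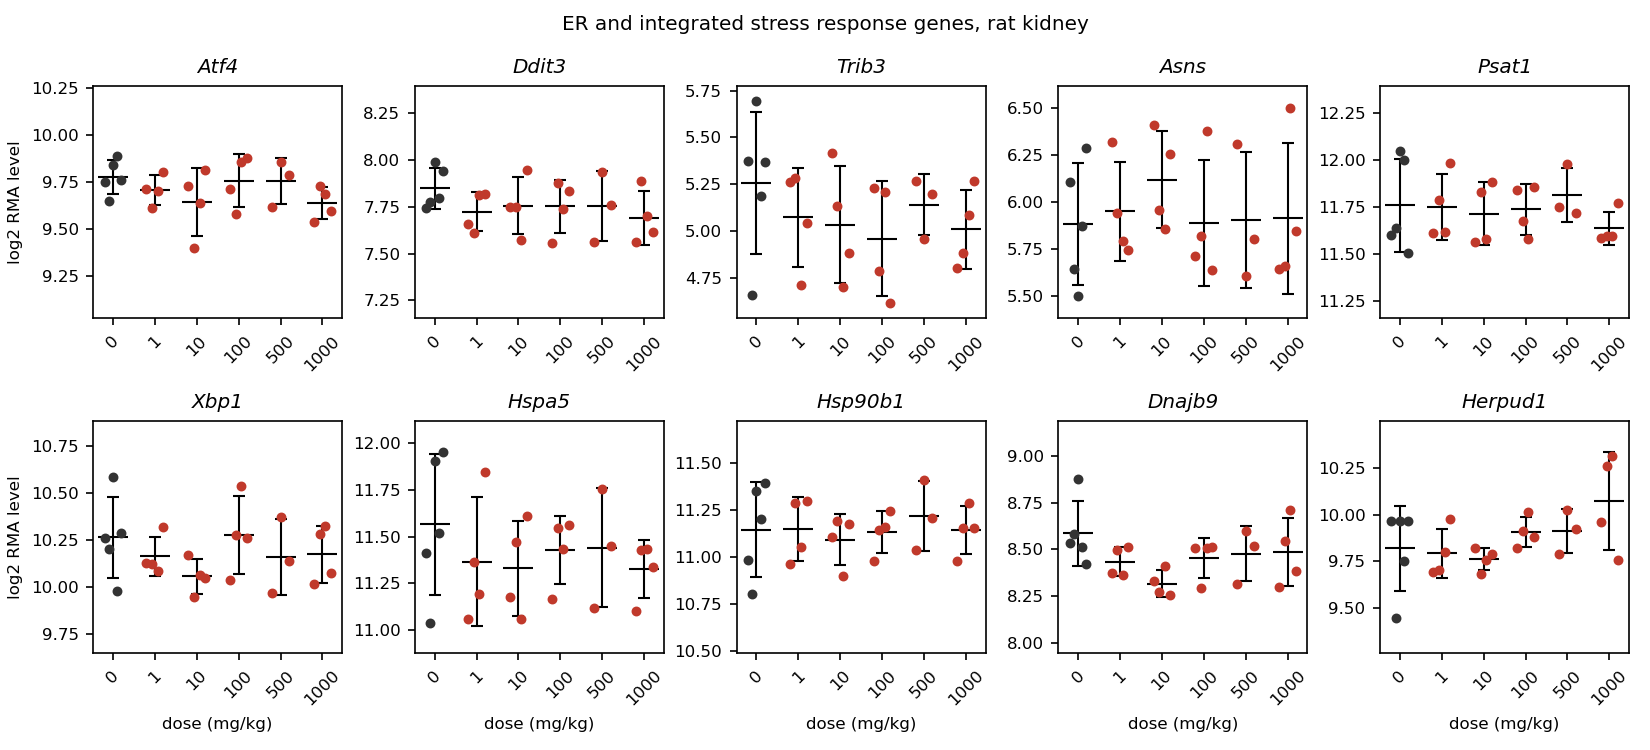
Log2 RMA levels (y axis) of the 10 genes in kidney at each dose in mg/kg (x axis), with 1 point per array (black at 0 mg/kg, red with compound) and bars for the group mean ± SD (n = 5 at 0 mg/kg, n = 3 at 500 mg/kg, n = 4 elsewhere). All panels span the same number of log2 units, fewer than in the liver plot. The groups at 1000 and 0 mg/kg overlap in every panel, and 2 of 4 Herpud1 arrays at 1000 mg/kg lie above the controls.

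In 7 kidney arrays the mean level of the adipocyte markers, 9 of 10 of which were measured, lay more than 0.5 log2 units above its control mean. Of these 7 arrays, 1 was control replicate 4, 3 came from 10 mg/kg, and the groups at 1, 100 and 500 mg/kg had 1 each. The arrays at 1000 mg/kg lay between -0.42 and -0.15, and the controls between -0.31 and 0.82. The markers did not move alike over the kidney arrays. Ucp1 ran from 4.30 to 11.92 and Fabp4 from 5.54 to 11.62, but Plin1 only from 3.84 to 4.27 and Lep from 3.56 to 4.13. Summed over the 9 markers, the log2 level was 9.29 to 9.91 at 1000 mg/kg and 9.21 to 10.48 at 0 mg/kg. Without these 7 arrays the count of members called at 1000 mg/kg in kidney was also 0. Over the 24 kidney arrays the marker level correlated most with Xbp1 (r = -0.45, permutation p = 0.0269, rho = -0.43, permutation p = 0.0383, 0.237 and 0.246 after adjustment over the 10 members) and Asns (r = 0.41, permutation p = 0.0473, rho = 0.41, permutation p = 0.0493, 0.237 and 0.246 after adjustment). Without the 2 arrays farthest from the median marker level r was -0.34 for Xbp1 and 0.25 for Asns, and within dose groups -0.39 and 0.35. For other members it was farther from 0 without these 2 arrays than over all 24. For Hspa5 it was -0.46 without them and -0.32 over all, for Ddit3 -0.44 and -0.23, and for Hsp90b1 -0.40 and -0.31.

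The responses of the organs at 1000 mg/kg, each relative to its own controls, did not differ for any member past the threshold. In the test of liver minus kidney change, 0 of 10 members were called by limma, against 0.626% of all genes, and 1 had an unadjusted p under 0.05, against 12.3%. That was Herpud1, with a difference of -0.47 and a standard error of 0.19 (limma adjusted p = 0.288). It was made of a change of -0.22 in liver and 0.25 in kidney. In a fit that paired same-numbered liver and kidney arrays of a dose through a random block, as if each pair came from 1 rat, the count was also 0. Psat1 had a difference of 0.65 with a 95% interval from -0.018 to 1.32, and Atf4 one of 0.39 with an interval from -0.016 to 0.80.

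**Figure D3:**
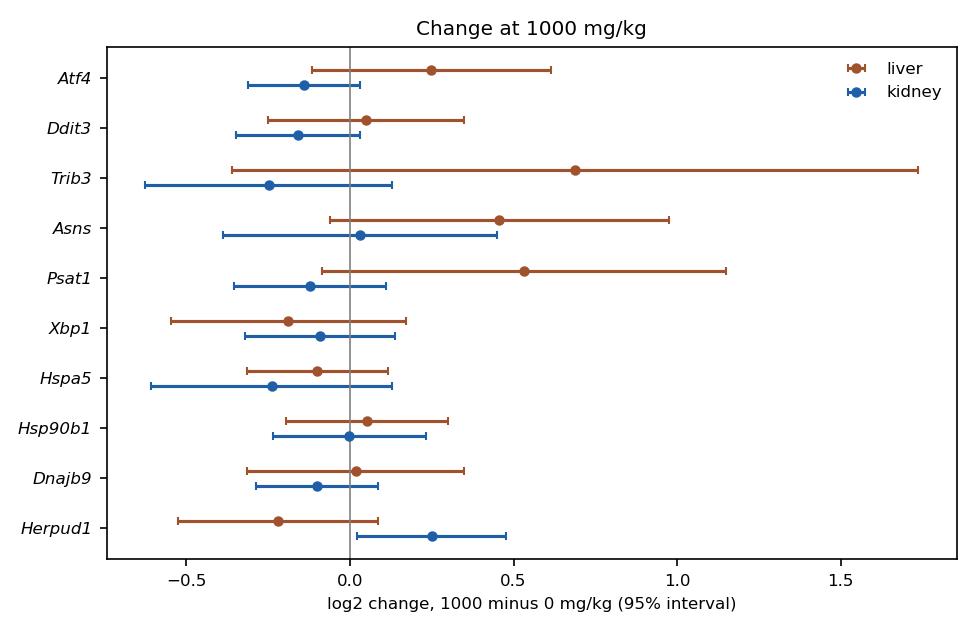
Log2 change at 1000 mg/kg minus 0 mg/kg (x axis) of each gene (y axis), with 95% intervals from limma, for liver (brown) and kidney (blue). The interval of Trib3 in liver is the widest of the set, and that of Herpud1 in kidney is the only one of the 20 that leaves out 0 before adjustment.

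Several members varied together from array to array. All 45 pairs were correlated over the arrays of each organ, and p-values were adjusted over the 90. In liver 3 pairs passed an adjusted p of 0.05 by Pearson's r, and these 3 also passed by Spearman's rho. In kidney 6 pairs passed by r, of which 4 also passed by rho. By rho alone 2 more pairs passed in liver and 3 in kidney, so that 14 passed by either measure, and all 14 were positive. The share of pairs of all genes that would pass was not computed, so these counts have no background beside them. The arrays share dose groups, so r was also computed on deviations from the group means. Properties shared by a whole array stay in these deviations, and the permutations treat all arrays of an organ as exchangeable. The part of such properties in the pairs was not tested.

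Asns and Psat1 were the closest pair in liver (r = 0.86, rho = 0.83, permutation p = 1e-05 for each, the smallest 100000 permutations can give, adjusted p = 0.0003). Within dose groups r was 0.81. Without the 2 arrays farthest from the median of Asns it was 0.85. Among 14216 other genes Psat1 ranked 2 for likeness to Asns, and Asns ranked 2 for Psat1. Control replicate 5, with 8.72 for Asns and 9.19 for Psat1, was as high in both as livers at 1000 mg/kg, and control replicate 4, with 7.82 and 7.74, was low in both. In kidney the pair gave r = -0.47. There Asns averaged 5.88 at 0 mg/kg, below the median gene at 6.72.

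Atf4 and Trib3 formed another pair in liver (r = 0.80, rho = 0.80, permutation p = 1e-05 for each, adjusted p = 0.0003). Within dose groups r was 0.75, and without the 2 arrays farthest from the median of Atf4 it was 0.74. Control replicate 1, with 10.12 for Atf4 and 7.21 for Trib3, was low in both. In kidney, where Trib3 read low, r was 0.13.

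Hspa5 and Hsp90b1 varied together in both organs. The windows of both hold the ER stress response element, as does that of Xbp1. In liver Xbp1 gave r = 0.11 with Hspa5 and -0.16 with Hsp90b1, and in kidney 0.56 and 0.45. Whether the element has a part in this was not tested. For Hspa5 with Hsp90b1 in kidney r was 0.87 and rho 0.88 (permutation p = 1e-05 for each, adjusted p = 0.0003). There r was 0.92 within dose groups and 0.84 without the 2 arrays farthest from the median of Hspa5. Over the 17 kidney arrays not high in adipocyte markers r was also 0.84. Each was the gene most like the other among 14216. In liver r was 0.66 (permutation p = 0.0004, adjusted p = 0.006) and rho 0.60 (permutation p = 0.00209, adjusted p = 0.0269). It was 0.72 within dose groups and 0.72 without the 2 arrays farthest from the median of Hspa5, but 0.49 without the 2 farthest from the median of Hsp90b1. Kidney control replicates 3 and 5 were high in both, with 11.90 and 11.95 for Hspa5 and 11.35 and 11.39 for Hsp90b1, and control replicate 2 was low in both, with 11.04 and 10.80. At 1, 100, 500 and 1000 mg/kg, but not at 0 or 10 mg/kg, replicate 1 was the lowest kidney array of its group in both.

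In kidney Ddit3 also varied with the chaperones. With Hspa5 it gave r = 0.77 (permutation p = 2e-05, adjusted p = 0.00045) and rho = 0.77 (permutation p = 3e-05, adjusted p = 0.000675). Within dose groups r was 0.75, and without the 2 arrays farthest from the median of Ddit3 it was 0.72. Over the 17 arrays not high in adipocyte markers r was 0.70, and that of Ddit3 with Hsp90b1 was 0.43. In liver the same pair gave r = -0.15. Xbp1 and Dnajb9 gave r = 0.69 (permutation p = 0.00031, adjusted p = 0.00558) and rho = 0.65 (permutation p = 0.00083, adjusted p = 0.0125) in kidney, with r = 0.66 within dose groups and 0.60 without the 2 arrays farthest from the median of Xbp1. Ddit3 with Hsp90b1 gave r = 0.58 (adjusted permutation p = 0.0478) and rho = 0.58 (adjusted permutation p = 0.0391). The other kidney pairs that passed by r, Ddit3 with Xbp1 and Hspa5 with Xbp1, each gave 0.56 and an adjusted permutation p of 0.0496, and did not pass by rho (0.0771 and 0.0844).

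The pairs that passed by rho alone included Ddit3 with Atf4 in both organs. In liver they gave r = 0.51 (adjusted permutation p = 0.0598) and rho = 0.55 (adjusted permutation p = 0.0416), and in kidney r = 0.52 (adjusted permutation p = 0.0598) and rho = 0.56 (adjusted permutation p = 0.0416). Ddit3 with Trib3 in liver gave r = 0.51 and rho = 0.57 (adjusted permutation p = 0.0598 and 0.0391). Herpud1 with Xbp1 in kidney gave r = 0.54 and rho = 0.73 (adjusted permutation p = 0.0596 and 0.0018), the widest gap between the measures among these pairs. Atf4 with Hspa5 in kidney gave r = 0.47 and rho = 0.57 (adjusted permutation p = 0.0877 and 0.0397). A pair that passed need not be close among all genes. Of 14216 other genes in kidney, Hspa5 ranked 903 for likeness to Atf4, and Atf4 ranked 604 for Hspa5. For Ddit3 with Atf4 in kidney, Atf4 ranked 136 for Ddit3 and Ddit3 ranked 634 for Atf4. Whether pairs differ between the organs was not tested.

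**Figure D4:**
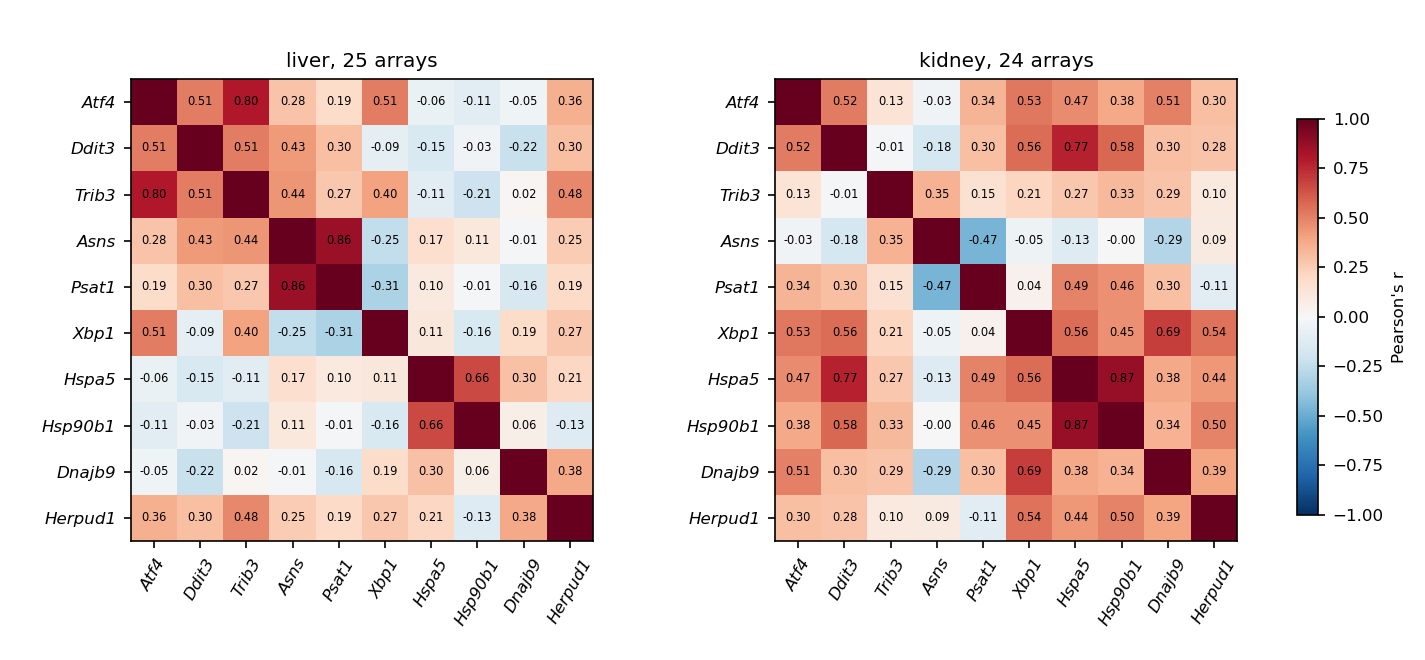
Pearson's r between each pair of the 10 genes over 25 liver arrays (left) and 24 kidney arrays (right), coloured from -1 (blue) to 1 (red). In liver the pairs Asns with Psat1 (0.86), Atf4 with Trib3 (0.80) and Hspa5 with Hsp90b1 (0.66) stand out, and in kidney Hspa5 with Hsp90b1 (0.87) and with Ddit3 (0.77).

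Outside the 10 genes, the genes most like Asns in liver over 25 arrays were Phgdh (r = 0.87), Plekha1 (0.84), Fut1 (0.78), Cavin3 (0.78) and Eif3m (0.75). In kidney over 24 arrays they were Stra6l (0.80), Slc7a12 (0.76), Azgp1 (0.75), Ace (0.74) and H4cl1 (0.73). The 5 likest genes in the organs thus had no name in common, and in kidney Asns read below the median gene. The genes most like Hspa5 in liver were Manf (0.83), Creld2 (0.82), Slc35b1 (0.71), Actg1 (0.70) and Arfgap3 (0.69). In kidney they were Manf (0.82), Dnaja1 (0.81), Ezr (0.79), Pdia4 (0.79) and Hsph1 (0.79). Manf stood first for Hspa5 in both organs. These values are descriptions of genes picked as the highest of all.

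**Figure D5:**
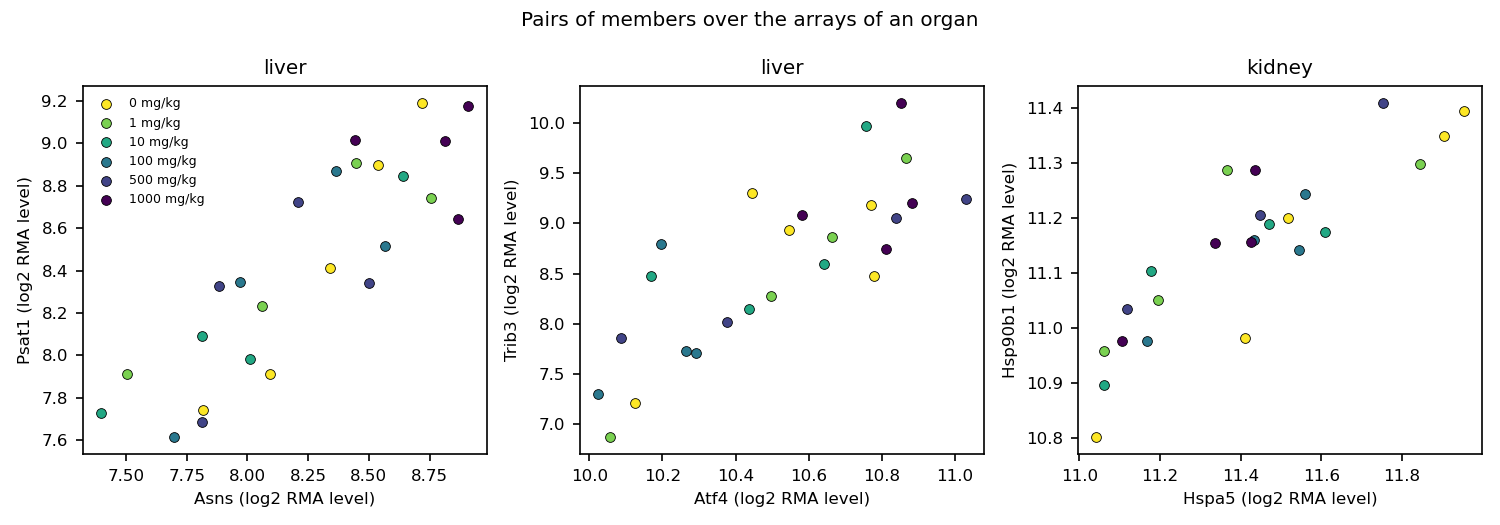
Log2 RMA levels of 2 genes against each other, with 1 point per array coloured by dose (yellow at 0 mg/kg, darkest at 1000 mg/kg): Psat1 against Asns in liver, Trib3 against Atf4 in liver and Hsp90b1 against Hspa5 in kidney. Arrays at 0 mg/kg lie along much of the length of each cloud, and in the left panel the arrays at 1000 mg/kg lie at its upper end.

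The wider pathway was read through 6 lists of other genes. In liver at 1000 mg/kg 0 genes were called by limma in any of them. Unadjusted p-values under 0.05 numbered 0 of 23 measured ER folding and chaperone genes and 2 of 24 genes of ER-associated degradation and the translocon. They numbered 3 of 19 effectors of the integrated stress response and 2 of 25 amino acid supply genes. Such a p was found in 2 of 22 sensors and regulators and in 2 of 12 heat shock genes, cytosolic and mitochondrial. Over all genes the share was 12.4%. The median log2 change was 0.10 for amino acid supply, where 19 of 25 genes were above 0, and between 0.0013 and 0.079 for the other lists, against 0.015 over all genes.

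Named by the smallest p, the liver effectors were Cth, Nupr1 and Gdf15. Gdf15, a stress-induced secreted cytokine, read 6.05, 8.02, 5.84 and 6.48 at 1000 mg/kg, against 5.42, 5.57, 5.34, 5.61 and 6.53 at 0 mg/kg. Replicate 2, which was also highest for Trib3, stood well above the rest, and the log2 change was 0.90 with a standard error of 0.42 (limma adjusted p = 0.383). Phgdh, the entry enzyme of serine synthesis, read 9.33, 9.33, 9.71 and 9.44 at 1000 mg/kg, against 9.13, 8.86, 8.95, 8.60 and 9.45 at 0 mg/kg. Only control replicate 5, high in Asns and Psat1 as well, reached the range at 1000 mg/kg. Its log2 change was 0.46 with a standard error of 0.21 (limma adjusted p = 0.376). Slc7a3, a transporter of cationic amino acids, had the smallest p of the amino acid supply list and went the other way, with a log2 change of -0.25 (adjusted p = 0.293) at levels of 3.58 to 3.73 at 1000 mg/kg and 3.67 to 4.06 at 0 mg/kg. Aars1, the alanyl-tRNA synthetase, had one of 0.14 (0.473). Cth, cystathionine gamma-lyase, had a log2 change of 0.25 (adjusted p = 0.200), and Nupr1 one of 0.37 (0.280). Of the heat shock genes, the mitochondrial chaperonin subunit Hspe1 had one of 0.19 (0.253), the small heat shock protein Hspb1 one of 0.64 (0.263) and Hsp90ab1 one of 0.13 (0.491). The named ER genes had log2 changes of -0.28 for Pdia5, -0.18 for Hspa13, 0.19 for Erp29, 0.20 for Dnajb2, 0.16 for Ubxn6 and 0.13 for Selenos. The sensors and regulators Creb3, Mbtps1 and Traf2 had 0.19, 0.19 and 0.18. None of these passed the threshold.

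In kidney at 1000 mg/kg 2 genes of the 6 lists fell, both among the 25 measured amino acid supply genes, and none rose. Over all genes 1.04% fell and 0.506% rose. Cars1, the cysteinyl-tRNA synthetase, read 7.03, 7.10, 7.15 and 6.97 at 1000 mg/kg, against 7.48, 7.42, 7.30, 7.52 and 7.35 at 0 mg/kg. For Cars1 the log2 change was -0.35 with a standard error of 0.070 (limma adjusted p = 0.00806). Aldh18a1, which makes the proline precursor pyrroline-5-carboxylate, read 5.97, 6.49, 6.17 and 6.37 at 1000 mg/kg, against 6.87, 6.63, 6.79, 6.61 and 6.57 at 0 mg/kg. For Aldh18a1 it was -0.44 with a standard error of 0.11 (limma adjusted p = 0.0447). For both, every array at 1000 mg/kg lay below every control, as in 3.09% of all genes. In that list 18 of 25 genes were below 0, against 55.5% of all genes, with a median of -0.082, against -0.017 over all genes.

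These 2 calls depended on single arrays and settings. Only Cars1 was called without control replicate 1, 2, 3 or 4 or without 1000 mg/kg replicate 1 or 3. With all probe sets of Cars1 averaged, its log2 change was -0.074 (limma adjusted p = 0.615). Neither was called in a fit of the 2 groups alone or without the 7 kidney arrays high in adipocyte markers, where Cars1 had a log2 change of -0.33 (adjusted p = 0.0517) and Aldh18a1 one of -0.47 (0.124). The mean level of the macrophage markers, 9 of 10 measured, was also read in kidney relative to its control mean. It lay between -0.29 and -0.15 at 1000 mg/kg and between -0.066 and 0.077 at 0 mg/kg. These markers summed to log2 levels of 11.79 to 12.08 at 1000 mg/kg and 12.00 to 12.43 at 0 mg/kg. Their part in the 2 calls was not tested.

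The other named kidney genes did not pass the threshold. Ube2j1, a ubiquitin-conjugating enzyme of the ER membrane, had a limma adjusted p of 0.0599 and a log2 change of -0.22, with every array at 1000 mg/kg below every control. Cth had one of 0.56 (adjusted p = 0.128), with every array above every control as in 1.62% of all genes, while Atf3 had one of -0.43 (0.233) and Vldlr one of -0.24 (0.298). Slc3a2, the heavy chain of amino acid transporters, had one of -0.40 (0.201), Creb3l1 one of -0.37 (0.110), Atf6b one of -0.20 (0.235) and Creb3 one of -0.15 (0.370). Of the chaperones, Manf had one of -0.32 (0.275), Pdia4 one of -0.26 (0.272) and Hspa13 one of -0.21 (0.241). Bag3, Dnaja1 and Hspb1 had -0.22, -0.17 and -0.16, and Ubxn4 and Derl2 had -0.13 and -0.14.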

How the data were processed

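The labels' protocols describe total RNA of each tissue sample hybridized to 1 Affymetrix Rat Genome 230 2.0 array. The authors deposited log2 levels per probe set. The submitters' processing notes name RMA, without a version or the set of arrays normalized together, so organs were compared through changes from their own controls. The log2 scale follows from the range of the values. RMA equalizes array distributions, which can hide a shift of most genes.

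Of 31099 probe sets, 20826 had 1 symbol. Each gene was represented by its probe set with the highest mean over 49 arrays. Linear models with 1 mean per dose group were fitted to all arrays of an organ with limma 3.58.1 in R 4.3.3, and the organ difference to all 49. Correlations used 100000 permutations in Python 3.11.15. On simulated data for 14217 genes, 80% of 1.5-fold and 98% of 2-fold changes were called in liver at 1000 mg/kg, and 80% and 94% in kidney. Of the unchanged genes, 14 in liver and 15 in kidney were called too. Noise was drawn separately for each gene, so properties shared by a whole array were left out. The 200 changed genes were drawn at random, and Trib3, Psat1 and Asns in liver vary more than 97.7% of genes.

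The members and lists were chosen with earlier results of these data known. Named were all 10 members, up to 3 genes per list and organ with the smallest p at 1000 mg/kg, and the 5 genes most like Asns and Hspa5 per organ, leaving out provisional symbols (LOC, RGD, MGC, AABR). Alternatives changed the probe set rule, filter, scaling, moderation, array weights, replicate block, arrays fitted and each array in turn.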

Additional observations from a re-analysis of the deposited data

Results flagged for a closer look

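Single arrays stood apart from the rest of their group in 4 of the 110 groups of a member tested, and chance gives about 1 in 20. Xbp1 read 11.25 in liver control replicate 1, while the other controls read 11.87 to 12.03. It read 11.28 in liver replicate 4 at 10 mg/kg, while the others there read 11.90 to 12.02. Psat1 read 11.77 in kidney replicate 4 at 1000 mg/kg, while the others read 11.58 to 11.60. Dnajb9 read 8.30 in kidney replicate 2 at 100 mg/kg, and the others all read 8.51. The size of the gap against the range of the group marked each of them, and no cause was tested.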

How the results depend on the processing

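The count of members called was 0 in all 15 comparisons, 0 in all 171 fits without 1 array and 0 under every other alternative, 311 counts in all. Direction turned in some small changes at 1000 mg/kg, none of them called. With array weights Asns in kidney was -0.039, Ddit3 in liver -0.018 and Hsp90b1 in kidney 0.000599. With quantile normalization Dnajb9 in liver was -0.022. With centred arrays it was -0.017 and Hsp90b1 in kidney 0.044, which was 0.012 without the arrays high in adipocyte markers. With all probe sets averaged Trib3 in kidney was 0.044. Without single arrays Asns in kidney ran from -0.17 to 0.13, Ddit3 in liver from -0.018 to 0.14, Dnajb9 in liver from -0.11 to 0.18, and Hsp90b1 from -0.0079 to 0.11 in liver and from -0.088 to 0.060 in kidney. Of the 20 member changes at 1000 mg/kg, 5 turned direction without some single array and 11 more moved by over 1.5 times. The smallest adjusted p of any member at 1000 mg/kg was 0.0982, for Herpud1 in kidney.

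The amino acid supply genes called in kidney at 1000 mg/kg, 2 as reported, were examined after their count was seen. They numbered 1 with probe sets averaged, with every probe set tested, among brighter genes, with quantile normalization, with centred arrays and with array weights. They numbered 0 in the 2 groups alone and without the arrays high in adipocyte markers, and 1 to 2 without single arrays.

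Deviations of same-numbered liver arrays of different doses had a median correlation of -0.0037, against -0.0071 for other numbers. In kidney the median was 0.079 for the same number, with 23 of 55 pairs over 0.1, and -0.025 for other numbers. Whether kidney arrays of 1 number share a factor is therefore not settled. The numbers are not taken as pairs within an organ. Between liver and kidney arrays of 1 dose the median correlation was 0.11 for the same number, with 13 of 24 pairs over 0.1, and -0.037 for other numbers, so that a shared rat is not settled either way. With the replicate number as a block the count of members called was 0 in each comparison fitted so, the list count was 2, Dnajb9 in liver was -0.11 and Hsp90b1 in kidney 0.060. Control replicate 5 has no partner, so the block leaves it out of the comparison at 1000 mg/kg. Intervals of 0.778-fold to 3.34-fold for Trib3 in liver show what 4 arrays a dose leave undecided, and levels near the array floor are not shown to lie above background.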
